A study of Mus musculus with 2 samples.

Results

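The genes Nes, Vim, Fabp7, Slc1a3, Ptprz1, Tnc, Hopx, Gli3, Emx2 and Pax6 mark the radial glia of the developing cerebral cortex. They were compared between a wild-type and a Sox11-null library, both labelled as cortex. Their probe sets, groups of array probes summarised to 1 signal, were chosen by name only: each names exactly 1 gene in the platform annotation, and that gene is among these 10. This gave 29 of the 45037 non-control probe sets, and 10 of the 18193 genes with such a probe set. The 10 genes, and the marker lists used below, were chosen with earlier results of these data known. The RNA was described as that of the cerebral cortex of 1 Sox11+/+ embryo and 1 Sox11-/- littermate at E17.5, late in embryonic development. The embryos were bred from Sox11+/- parents on a mixed C57BL/6 and 129 background. Each genotype was represented by 1 embryo and 1 array, so each difference is one between 2 libraries, with no error between embryos and no test. Precision is limited by this number of arrays. Where a pair of signals is given, the wild-type one comes first.

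Radial glia are the neural stem cells of the embryonic cortex. Their cell bodies line the ventricle and a long fibre reaches the pial surface, along which newborn neurons migrate. They divide to give neurons, often by way of intermediate progenitors, and near birth many turn to making astrocytes. Sox11, a transcription factor of the SoxC group, is best known in newborn neurons, the cells that radial glia give rise to.

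In the Sox11-null library the 6 Sox11 probe sets kept between 16.4% and 47.8% of the wild-type signal. The sources used here do not say which of them fall inside the deletion, and a probe set outside it checks nothing. Both libraries, labelled as cortex, held cortical neuron genes such as Neurod6 (wild type 3019, null 2723), but also genes of tissues outside the brain. All 10 skeletal muscle genes of a marker list lay above the median signal of both arrays, and summed to 124554 (wild type) and 126412 (null), with Acta1 at 23182 and 23519 and Tnnc2 at 22674 and 22146. Of 6 trunk organ genes 2 were measured, Sftpc at 182 and 129 and Cela1 at 182 and 184. In wild type both lay just above the array median of 177.5, and Sftpc was under the median in the null array. For beta-actin, a control for RNA integrity, the ratio of signal at the 3' end to that at the 5' end was 1.78 (wild type) and 1.16 (null), and for Gapdh it was 0.92 and 0.82. In such bulk RNA, fewer cells of a type and less RNA per cell cannot be told apart, and the 10 genes are not read here as a count of radial glia.

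No radial glia marker gene differed by 1.5-fold between the libraries. For each gene the value is that of its brightest probe set by mean log2 signal, and all 10 reached the array median on at least 1 array, the condition for being measured. The count of 0 of 10 stands beside 6.30% of the 12390 measured genes that were past 1.5-fold either way (3.07% higher and 3.24% lower), a share that comes to 0.63 of 10 genes. The log2 differences, Sox11 null minus wild type, ran from -0.22 for Emx2 to 0.25 for Vim, with 5 genes above 0 and 5 below. Their median was 0.0047, against 0 over all measured genes, to which the arrays were centred. The median size of the difference, regardless of sign, was 0.19 for the 10 genes and 0.17 for all measured genes. The sizes were thus near those of measured genes at large, and between 33.1% (Vim) and 82.3% (Ptprz1) of all measured genes differed by at least as much. As a yardstick, the SD between measured probe sets of 1 gene, pooled over 5155 genes, was 0.39, wider than the difference of any of the 10. It covers all measured probe sets and not only the brightest. They read the same 2 RNA samples, so it is no error between embryos.

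**Figure D1:**
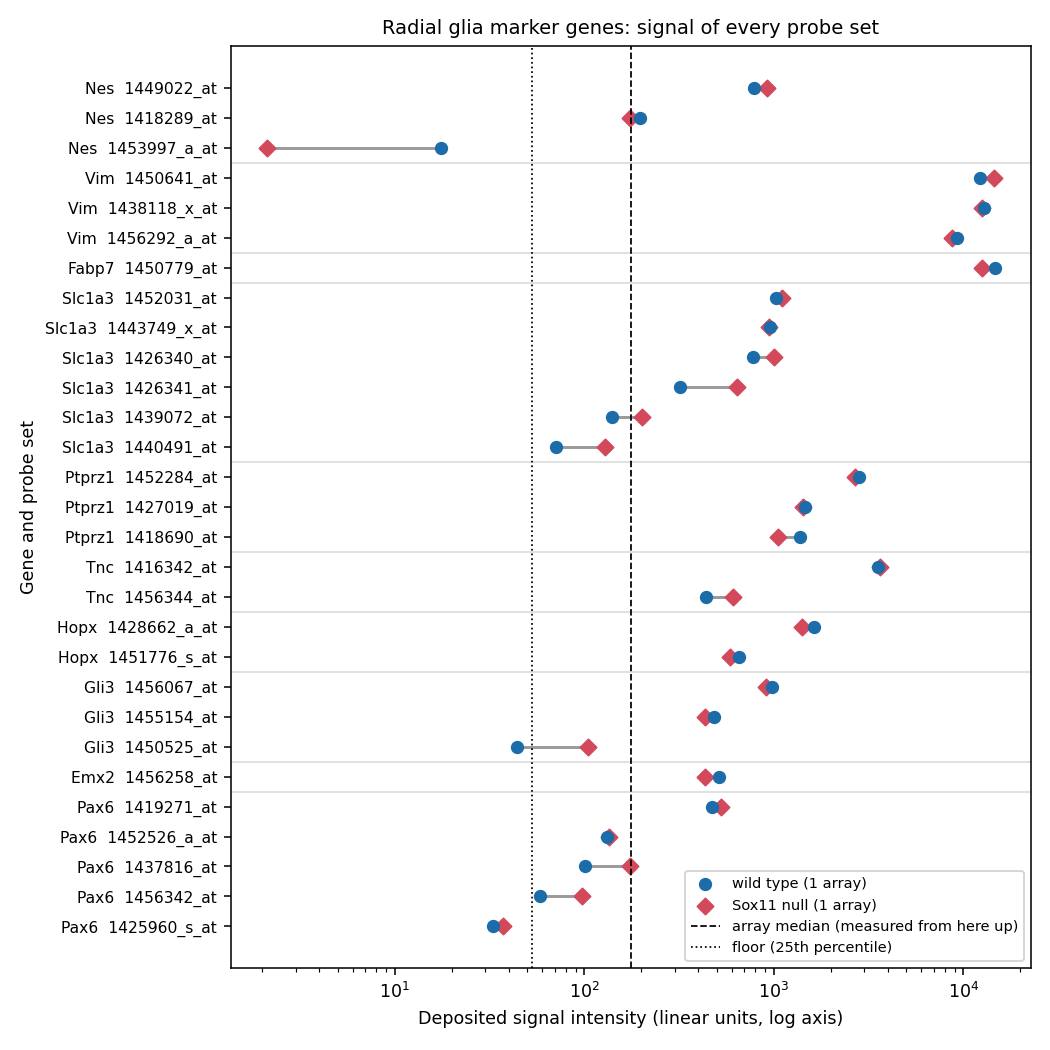
Deposited signal of each of the 29 probe sets of the 10 genes (x axis, linear intensity units on a log axis) in the wild-type array (circles) and the Sox11-null array (diamonds), 1 array each; dashed and dotted lines are the wild-type array's median (177.5) and 25th percentile (52.9). The pairs lie close together for the brighter probe sets and farther apart for several that lie near or under the median, such as Slc1a3 1440491_at (71.3 and 129).

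The intermediate filament genes were slightly higher in the null library by their brightest probe sets, and level or lower by the others. Nes encodes nestin, a filament protein of neural stem cells. Probe set 1449022_at read 784 in wild type and 917 in the null array, a log2 difference of 0.25. The other measured one, 1418289_at, gave 198 and 175, the opposite direction (-0.16), and reached the median only in wild type. A further Nes probe set, 1453997_a_at, lay at 17.6 and 2.12, under the 25th percentile of both arrays, where no difference is given. Vim encodes vimentin, the filament protein that pairs with nestin in radial fibres. It was at 12303 and 14440 with 1450641_at (0.25), at 12896 and 12592 with 1438118_x_at (-0.015), and at 9272 and 8685 with 1456292_a_at (-0.074). Only 1 of the 3 Vim probe sets was therefore higher, but with quantile normalization or a loess trend removed all 3 were. Then 1450641_at was at 0.37 with either, 1438118_x_at at 0.088 and 0.11, and 1456292_a_at at 0.024 and 0.025. The mean log2 difference over the 3 was 0.054, with an SD of 0.17 between probe sets that read the same 2 RNA samples.

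Nestin and vimentin are not limited to the brain. Embryonic muscle holds both, and blood vessels and fibroblasts hold at least vimentin. The muscle list had a median log2 difference of 0.14 over 10 genes, none past 1.5-fold, and the fibroblast and meninges list one of 0.20 over 8 genes, with Foxc2 higher (0.64). Its summed signal was 63514 and 65646. Among all measured genes 6.30% were past 1.5-fold either way. The lists were chosen with earlier results of these data known, so shares set beside them are a reference and not a test. In the endothelium and pericyte list 3 of 7 genes were past 1.5-fold higher, beside 3.07% of all measured genes. They were the adhesion genes Pecam1 (0.60) and Cdh5 (0.63) and the receptor gene Tie1 (0.68). None was past 1.5-fold lower, but of the 7 genes 5 were above 0 and 2 below, Cldn5 (1547 and 1275, -0.26) and Pdgfrb (-0.093). That list summed to 7396 and 8391, with no gene under the 25th percentile of both arrays. The part of these tissues in the Nes and Vim differences was not tested. Among related filament genes, all 8 measured were within 1.5-fold. Desmin (Des), the muscle filament gene, lay nearest the edge at 1521 and 2191 (0.55). The neuronal filament genes Ina and Nefl differed by -0.15 and -0.0035.

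Fabp7 and Ptprz1, which encode a lipid carrier and a receptor of radial glia, were level or slightly lower in the null library, and Tnc and Slc1a3 level or higher. Fabp7 encodes the brain fatty acid-binding protein, also called BLBP, which carries lipids inside radial glia. Its single probe set gave 14647 in wild type and 12514 in the Sox11-null array, a log2 difference of -0.21. There was no second probe set to compare. With quantile normalization the difference was -0.099, and with a loess trend removed it was -0.083. Glia along peripheral nerves also make Fabp7. In the Schwann and satellite glia list the median was -0.25 over 5 measured genes, and none of the 4 that reached the median on both arrays was past 1.5-fold. The cadherin Cdh19, at 190 and 83.5 (-1.16), passed the filter only through wild type, where it was high. The list summed to 2478 and 2143. The part of these cells in the Fabp7 difference was not tested. Of the other fatty acid-binding protein genes, Fabp5 (-0.25), Fabp4 (-0.11) and Fabp3 (0.14) were measured and within 1.5-fold. Fabp1, Fabp2, Fabp6 and Fabp9 were under the 25th percentile of both arrays.

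Slc1a3 was the one gene of the 10 with a measured probe set past 1.5-fold. It encodes GLAST, the transporter that takes up glutamate into radial glia and astrocytes. With 1452031_at, the brightest of its 6, the signal was 1029 in wild type and 1104 in the Sox11-null array (0.12), and 1443749_x_at gave 952 and 941 (0.0025). Both were level. The third, 1426340_at, gave 777 and 1005 (0.39), and 1426341_at gave 322 and 639, a log2 difference of 1.01 or 2.01-fold. The dimmest 2 were also higher in the null library, 1439072_at at 141 and 202 (0.54) and 1440491_at at 71.3 and 129 (0.87). The first of these passed the filter only through the null array, and the second was not measured.

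The 4 Slc1a3 probe sets that reached the median on both arrays thus lay at or above 0, although 1443749_x_at was at -0.017 without centring, -0.023 with quantile normalization and -0.020 with a loess trend removed, and their sizes were spread. Their mean was 0.38, with an SD of 0.45 between probe sets. With 1439072_at, which passed only through the array where it was high, the mean was 0.41 (SD 0.40) and the range 1.01. Among the 178 genes with the same number of measured probe sets the median range was 0.74, and 26.4% had a range at least as wide. Which stretches of the transcript these probe sets read was not analysed here, and the part of RNA integrity was not tested. Over all 10 genes, 1 of 22 measured probe sets was past 1.5-fold, beside 10.7% of the 20669 measured single-gene probe sets (7.26% higher and 3.48% lower), a share that comes to 2.36 of 22. Of the related transporter genes, Slc1a2 (764 and 946, 0.33), the main astrocytic one, and Slc1a4 (544 and 775, 0.53) were within 1.5-fold, as were the other 2 measured.

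**Figure D2:**
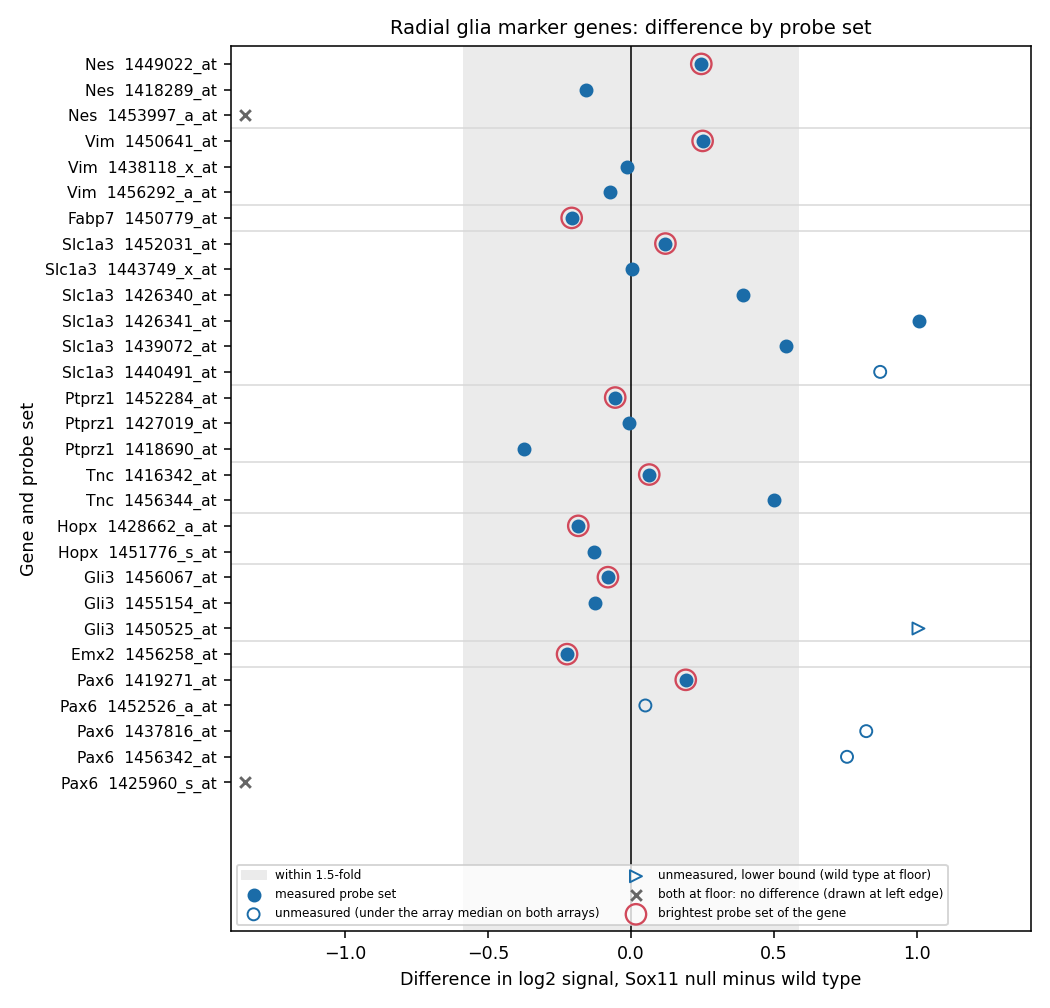
Difference in log2 signal, Sox11 null minus wild type, of each probe set of the 10 genes (x axis), with filled circles for measured probe sets, open circles for those under the median of both arrays, a triangle for a lower bound, crosses at the left edge where both arrays lay under the 25th percentile, and a red ring for the brightest probe set of a gene. Every ringed point lies within the shaded 1.5-fold band, and the only filled point outside it is Slc1a3 1426341_at at 1.01.

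The Slc1a3 promoter is shown as that of the gene with the widest range. It covers the 250 bases before the RefSeq start site, chr15:8710808-8711057 on the minus strand of GRCm38.p6, written 5′ to 3′ in the direction of transcription. The letters ACAAAG and ACAATG, cores that Sox factors can bind, were searched on both strands, and neither was found in it.
Slc1a3: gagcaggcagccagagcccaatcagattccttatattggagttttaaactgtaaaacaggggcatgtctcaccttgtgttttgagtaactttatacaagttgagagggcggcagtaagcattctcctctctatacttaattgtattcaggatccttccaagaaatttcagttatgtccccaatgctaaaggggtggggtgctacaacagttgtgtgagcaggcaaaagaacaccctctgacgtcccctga

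Ptprz1 encodes a receptor phosphatase of the radial glia surface that binds the growth factor pleiotrophin and the matrix protein tenascin C. Its 3 probe sets lay at or below 0, at 2813 and 2671 with 1452284_at (-0.055), 1459 and 1432 with 1427019_at (-0.0065), and 1379 and 1050 with 1418690_at (-0.37). The last of them had the most negative difference of the 22 measured probe sets. Tnc, which encodes tenascin C of the extracellular matrix around radial glia, was at 3533 and 3643 with 1416342_at (0.064) and at 439 and 612 with 1456344_at (0.50). Both Tnc probe sets were higher in the null library, neither of them by 1.5-fold. Tendon and cartilage make tenascin C as well. In the cartilage, bone and tendon list, the cartilage gene Matn1 was lower (447 and 236, -0.90) and 6 of 8 measured genes were within 1.5-fold. Past it either way were 6.30% of all measured genes. The tendon factor Scx, at 105 and 290 (1.48), passed the filter only through the null array, where it was high. The list summed to 14230 and 13678, with Col10a1 under the 25th percentile of both arrays, and the part of these tissues in the Tnc difference was not tested.

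Of 15 partners of Ptprz1 and Tnc, ligands, matrix proteins and receptors, 14 were within 1.5-fold, with a median of 0.0016. This count stands beside 6.30% of all measured genes past 1.5-fold. The integrin subunit gene Itgb1 was higher (2350 and 3522, 0.60, with 0.53 over its other 2 measured probe sets). Pleiotrophin (Ptn), a ligand of Ptprz1, was level at 11298 and 11301 (0.020).

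Among the transcriptional regulators, Hopx, Gli3 and Emx2 were slightly lower in the null library and Pax6 slightly higher by the brightest probe sets. Hopx encodes a small homeodomain protein that does not bind DNA itself, known as a marker of outer radial glia. It gave 1627 and 1412 with 1428662_a_at (-0.18), and 652 and 589 with 1451776_s_at (-0.13). Both probe sets were lower by similar sizes. Epidermal cells express Hopx too. Of 7 epidermis genes, a list chosen with earlier results known, 4 were past 1.5-fold lower (3 of the 6 that reached the median on both arrays). The share of all measured genes was 3.24%. Krt10 was at -1.64, while Krt5 (0.11), Krt15 (0.19) and Krt14 (-0.39) were within 1.5-fold. The list summed to 41384 and 24281, with no gene under the 25th percentile of both arrays. The part of epidermal cells in the Hopx difference was not tested.

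Gli3 encodes the transcription factor that represses Hedgehog targets in the dorsal telencephalon. Its measured probe sets gave 978 and 912 with 1456067_at (-0.080) and 481 and 435 with 1455154_at (-0.13), both lower. The third, 1450525_at, was unmeasured at 44.0 and 105, and with wild type under the 25th percentile it was at least 2.01-fold higher in the null library. Its direction was thus opposite to that of the brighter probe sets. Of 11 measured Hedgehog pathway genes 9 were within 1.5-fold, and the median of the 11 was 0.043. The share of all measured genes past 1.5-fold either way was 6.30%. The ligand gene Shh was lower (837 and 474, -0.80). The kinesin gene Kif7, which acts on Gli proteins, was at 158 and 265 (0.76) and passed the filter only through the null array, where it was high. The target genes Gli1 (371 and 476, 0.38) and Ptch1 (2508 and 2266, -0.13) were within it.

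Emx2, a homeodomain factor that patterns the cortex from its caudal and medial side, had 1 probe set, with a wild-type signal of 514 and a null signal of 434 (-0.22). Of 8 measured cortical patterning factors none was past 1.5-fold, 6 were below 0 and the median was -0.10. Among them Lhx2 was at 1116 and 1011 (-0.12), Nr2f1 at 3015 and 2803 (-0.085) and Tcf7l1 at 1153 and 981 (-0.21), while Emx1, the relative of Emx2, was at 219 and 272 (0.33).

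Pax6, a paired-domain and homeodomain factor that keeps radial glia in their progenitor state, was slightly higher. Of its 5 probe sets only 1419271_at was measured, with a wild-type signal of 470 and a null signal of 529 (0.19). Of the others, 1437816_at gave 100 and 175 (0.82), 1456342_at 58.5 and 97.4 (0.76) and 1452526_a_at 132 and 135 (0.051). The last, 1425960_s_at, was under the 25th percentile of both arrays. The direction above 0 was thus shared by the measured probe set and the 3 dim ones that were above the 25th percentile.

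Across all 10 genes, 5 of the 7 unmeasured probe sets were above the 25th percentile on at least 1 array, and 4 of these were past 1.5-fold higher in the null library (3 of them above it on both arrays, and Gli3 1450525_at as a bound). Over all single-gene probe sets of this kind, 13.2% were past 1.5-fold higher and 10.4% lower. In the band of mean signal that holds them, between the 25th and 50th percentile, the central 95% of differences ran from -1.04 to 1.30. The Slc1a3 and Pax6 values of these dim probe sets lie inside that range.

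Pax6 is also active in the eye and the pituitary, and lens and pituitary genes stood lower in the null library. Both lists were chosen with earlier results of these data known, so their counts are descriptions. In the lens and retina list 3 of 5 measured genes were past 1.5-fold lower, all of them crystallins (Crygd at -0.77), beside 3.24% of all measured genes. The list summed to 21809 and 13895. In the gland and pituitary list 5 of 7 were past 1.5-fold lower (4 of the 6 that reached the median on both arrays), with growth hormone (Gh) at -1.26. The sums were 66741 and 37792. Neither list had a gene under the 25th percentile of both arrays. The part of these tissues in the Pax6 values was not tested.

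Pax6 held the only match to the Sox cores among 13 promoter windows of the 10 genes, and its sequence is shown for that reason. The match, ACAAAG in capitals, begins 154 bases before the downstream of its start sites in RefSeq, in the window chr2:105682213-105682462 on the plus strand of GRCm38.p6. Of 32851 promoter windows of the same 250 bases, 25.2% held ACAAAG or ACAATG on either strand. A match is a description of letters and not a bound site.
Pax6: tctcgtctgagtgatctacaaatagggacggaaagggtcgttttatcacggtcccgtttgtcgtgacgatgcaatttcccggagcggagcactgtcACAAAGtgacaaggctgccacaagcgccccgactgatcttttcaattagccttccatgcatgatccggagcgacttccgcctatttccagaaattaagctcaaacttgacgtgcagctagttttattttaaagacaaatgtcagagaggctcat

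By their brightest probe sets, a wider set of radial glia genes was also split evenly around 0. Of 30 measured genes of a list of other radial glia markers, 27 were within 1.5-fold, 15 were above 0 and 15 below, and the median was 0.0083. Among all measured genes 6.30% were past 1.5-fold either way. The proteoglycan gene Cspg5 was higher (1057 and 1647, 0.66). The regulator Rfx4, at 115 and 191 (0.75), passed the filter only through the null array, where it was high. The Notch effector Hes5 was lower (640 and 358, -0.82), and less so (-0.23) with a second measured probe set. Of the 12 genes with other measured probe sets, the mean over these was past 1.5-fold higher for 2. They were the adhesion gene Cdh2 (0.75, with 0.18 by its brightest) and the receptor gene Ednrb (0.67, with 0.17). Whether these other probe sets reached the median on both arrays was not examined. Over all measured single-gene probe sets, the brightest included, 7.26% were past 1.5-fold higher. Sox2, which maintains neural stem cells, was level at 3088 and 2975 (-0.034). The Notch receptor gene Notch1 was at 963 and 837 (-0.18) and the surface protein gene Prom1 at 1324 and 988 (-0.40). Of 8 measured outer radial glia genes none was past 1.5-fold, the median was 0.011, and Stat3 lay nearest the edge (641 and 919, 0.54).

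Lists of the cell types made by radial glia had medians from -0.13 to 0.037 by brightest probe sets, while other probe sets of some genes gave larger differences. All 11 measured intermediate progenitor genes were within 1.5-fold by the brightest, with a median of 0.037, Insm1 at 0.093 and Hes6 at -0.36. Eomes lay at the edge (355 and 525, 0.58) and its other measured probe set gave 1.25, while that of Btg2 gave -0.69. The 10 measured astrocyte genes were within 1.5-fold by the brightest, with a median of -0.043, Gja1 at -0.16 and Sparcl1 at 0.048. Of 5 with other measured probe sets, the mean over these was past 1.5-fold for Gja1 (0.68), Aqp4 (0.61) and S100b (-0.78). The astrocyte filament gene Gfap was not measured, at 174 and 177. The 9 measured cortical neuron genes had a median of -0.13, with 3 above 0 and 6 below. None was past 1.5-fold by the brightest, with Stmn2 at -0.16 and Tubb3 at 0.24, while the other measured probe set of Neurod2 gave -0.85. The counts by brightest probe sets stand beside the 6.30% of all measured genes past 1.5-fold. For other probe sets that share is too low a reference. Over all measured single-gene probe sets, the brightest included, 10.7% were past 1.5-fold, and the share without the brightest was not computed. Whether the other probe sets named here reached the median on both arrays, or only on the array where they were high, was not examined.

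**Figure D3:**
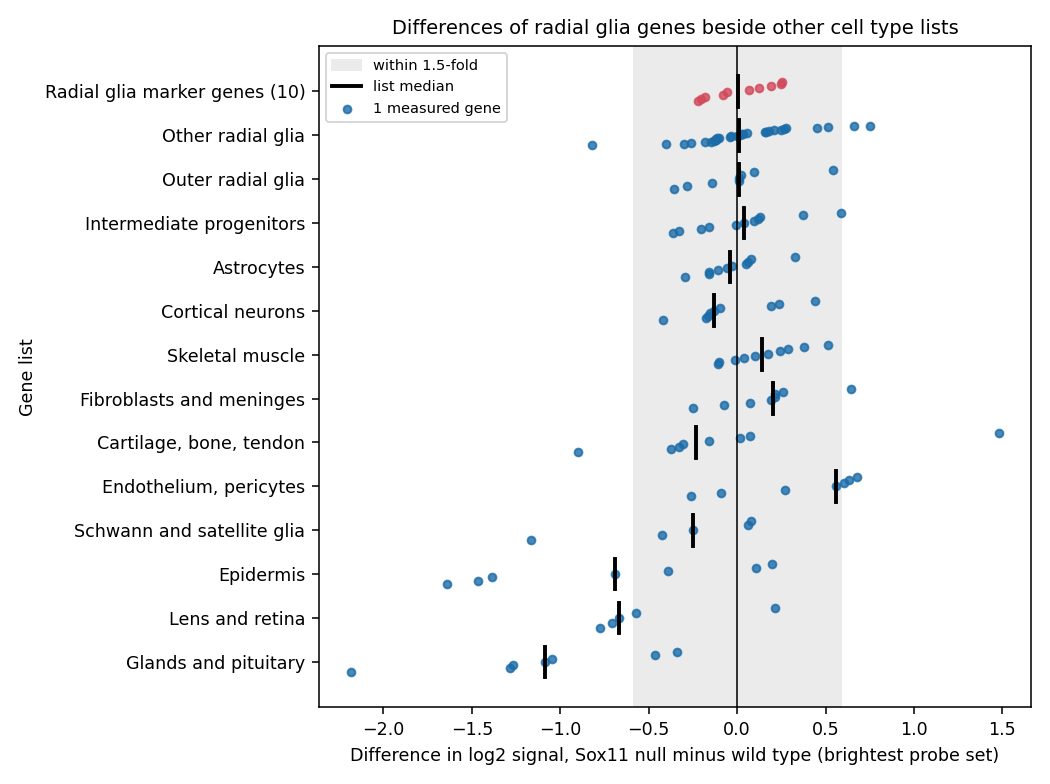
Difference in log2 signal, Sox11 null minus wild type, by the brightest probe set of each measured gene (points) in the 10 radial glia marker genes (red) and 13 other lists (blue), with black bars for list medians and the 1.5-fold band shaded. The 10 genes span -0.22 to 0.25 around a median of 0.0047, while the epidermis, lens and retina, and gland and pituitary lists have medians of -0.69, -0.67 and -1.09.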

How the data were processed

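Total RNA labelled as that of 1 wild-type and 1 Sox11-null cortex was hybridised to 1 Affymetrix array each. The deposited values are linear signal intensities, 1 per probe set and array, from Affymetrix Expression Console, per the submitters' processing notes. The sources used here do not name the summary algorithm. The mean after trimming 2% at each end was 500.0 on both arrays, so each was apparently scaled by 1 factor, which leaves intensity-dependent differences in place.

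Symbols were updated through a RefSeq gene table of GRCm38.p6. Genes were measured at or above the median (177.5 and 177.4) on at least 1 array. Signals were taken to log2, the null array was shifted by 0.020 to a median difference of 0 over measured genes, and values under the 25th percentile were raised to it. The floor was 52.9 in wild type and 53.3 in the shifted null array. Genes and lists were counted at 1.5-fold, with no test. The procedure was tested on simulated data.

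The rule for named genes took the 10 genes with all their probe sets, Sox11, Sox4, Sox12, and up to 4 genes of each list past 1.5-fold, or the 2 brightest where none was. Not all of these are printed, and other genes named were chosen after their values were seen. The members and lists were chosen with earlier results of these data known. Alternatives were other normalizations, floors, filters and probe set rules. Python 3.11.15, pandas 2.3.3 and statsmodels 0.14.6 were used.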

Additional observations from a re-analysis of the deposited data

How the results depend on the processing

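No member gene passed 1.5-fold under any of the 10 alternatives to the procedure (other centring, normalization, floor, filter or probe set rule), and the median of the members with a value ran from -0.082 to 0.045. Signs were kept in every member gene with a value, except Gli3, which was at 0.32 with all its probe sets averaged. That mean takes in the dim probe set 1450525_at. Averaging only measured probe sets, an alternative added after seeing the data, left Gli3 at -0.13, Slc1a3 at 0.38, Nes at 0.016 and Vim at 0.025. Some alternatives gave no value: Nes and Pax6 fell under the filter with all probe sets averaged, Emx2 and Pax6 with the filter at the 75th percentile, and Hopx has only _a_at and _s_at probe sets. With no filter on low values, 5 in place of 1 member probe sets were past 1.5-fold, since dim probe sets were then counted. In the main procedure, 13.2% of unmeasured single-gene probe sets above the floor on at least 1 array were past 1.5-fold higher, and 10.4% lower. The share over all probe sets with no filter was not computed. With the filter at the 75th percentile, 15 in place of 25 listed genes were, since fewer genes were counted. The Slc1a3 probe set 1439072_at dropped to 0.21 once the floor was raised to the array median. No paired analysis was possible because each genotype has 1 array, and no replicate could be left out. Signal over background limits the dim Pax6, Gli3 and Slc1a3 probe sets.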
